A study of Homo sapiens with 6 samples.

Results

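The FHL genes encode small adaptor proteins that consist almost wholly of LIM domains, with an incomplete domain at the amino end. A LIM domain holds a pair of zinc fingers and binds other proteins, so that FHL proteins work by joining partners and not by binding DNA themselves. FHL1 is known for its high level in striated muscle and for inherited myopathies, FHL2 as a cofactor of integrins, beta-catenin and AP-1, and FHL3 as a regulator of actin and of SMAD proteins. FHL1, FHL2 and FHL3 were studied, 3 genes of the 65198 gene rows in the series and of the 15934 genes tested. They were taken by gene name as 1 family, which was chosen by the FPKM of FHL1, higher in the cells with the hairpin against HOTAIR. The difference of FHL1 is therefore described with no test, while FHL2 and FHL3 were not picked for their own values and have one.

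The cells were MDA-MB-231, a basal-like line from a metastatic breast cancer, in 2 derivatives. In shHOTAIR cells tetracycline induced a short hairpin RNA that targets HOTAIR, which is a long non-coding RNA of the HOXC locus, and in shCtrl cells it induced a scrambled hairpin. Both groups were grown in DMEM/F-12 with serum and kept in 1 µg/ml doxycycline for 96 h, so that the controls had the inducer as well. Poly(A) RNA of 3 independent repeats of each gave 6 libraries. The labels name 1 derivative per hairpin, so the p-values are over repeats of a single derivative on each side.

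Expression was given as FPKM, fragments scaled by transcript length and library depth, a scale on which different genes can be compared. How many fragments each library held is not stated. The spacing of low values gave an estimate of relative depth, since a deeper library has a smaller FPKM step per fragment. With the step of shCtrl 1 set to 1, it was 0.812 and 0.841 in shCtrl 2 and 3. In shHOTAIR 1, 2 and 3 it was 0.664, 0.595 and 0.717. By this estimate shCtrl 1 was the shallowest, and every shHOTAIR library was deeper than every shCtrl library. Depth thus differed with group, and its part in differences of genes near 0 FPKM was not tested. Correlations of log2(FPKM + 1) across tested protein-coding genes were 0.99 to 0.994 within groups and 0.966 to 0.973 between them, and genes are not independent replicates. HOTAIR itself was at 0, 0.0128 and 0.0132 FPKM in shCtrl 1, 2 and 3 and at 0, 0 and 0.0113 FPKM in shHOTAIR 1, 2 and 3. At these levels no loss of HOTAIR could be measured. All 8 genes taken as markers of this line were tested, and 4 rose and 2 fell in limma, 75.0% against 28.7% of all tested protein-coding genes. CD44 had 475 ± 26 and 480 ± 43.9 FPKM (SD, n = 3) in shCtrl and shHOTAIR. EGFR, CAV1 and KRT18 rose by 1.02, 0.90 and 0.62 on the log2 scale (limma, adjusted p = 0.0011, 0.000725 and 0.00706), as did KRT8 (0.75, adjusted p = 0.0127), a call that ended without shCtrl 2, shCtrl 3 or shHOTAIR 2 (up to 0.0526). VIM, the mesenchymal filament protein vimentin, fell from 948 ± 37.1 to 393 ± 27.3 FPKM (SD, n = 3; limma, adjusted p = 0.000616), and its log2 change was -1.27, or -0.52 after centring on chromosomal neighbours. KRT19 fell by 0.59 on the log2 scale (limma, adjusted p = 0.0207), a call that ended without shCtrl 1, shCtrl 3, shHOTAIR 1 or shHOTAIR 2 (up to 0.0796). Of 7 markers of luminal and other mature epithelial cells only ERBB2 reached the tested range. The epithelial keratins KRT8, KRT18 and KRT19 were counted with the line's markers and not in this list, which therefore does not cover them. Their means were 141, 150 and 50.1 FPKM in shCtrl and 241, 232 and 32.8 FPKM in shHOTAIR. PGR, the luminal progesterone receptor, and KRT5, a keratin of basal epithelium, were listed at 0 in all 6 libraries.

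The members lie on different chromosomes of GRCh38. FHL1 (ENSG00000022267) is on the plus strand at chrX:136146702-136211359, FHL2 (ENSG00000115641) on the minus strand at chr2:105357712-105438513, and FHL3 (ENSG00000183386) on the minus strand at chr1:37996770-38005606. GENCODE 29 gives FHL1 33 transcripts with 32 start positions, FHL2 12 with 10 and FHL3 5 with 4, and the gene-level values cannot tell the isoforms apart. The coding sequences are related, and the longest run of identical bases between FHL1 and FHL2 was 17 bases. It is shown in capitals in its setting to let the reader see how far the paralogs differ, at chrX:136208593-136208633 on the plus strand for FHL1 and at chr2:105363293-105363333 on the minus strand for FHL2.
FHL1: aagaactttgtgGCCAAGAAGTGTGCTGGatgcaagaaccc
FHL2: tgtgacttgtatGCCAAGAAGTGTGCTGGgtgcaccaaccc
FHL2 and FHL3 shared at most 18 bases, at chr2:105367595-105367636 and chr1:37999303-37999344, both on the minus strand.
FHL2: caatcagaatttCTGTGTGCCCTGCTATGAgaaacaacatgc
FHL3: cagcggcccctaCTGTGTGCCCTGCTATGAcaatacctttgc
The longest run between FHL1 and FHL3 was 14 bases. No stretch of 30 bases was shared between transcripts of any 2 members, so fragments of 1 member could not be read in full as another over that length. Of the 6197 distinct 30-base stretches of FHL1, 184 (2.97%) also occurred in the overlapping loci AC008040.1 and AC008040.4 on chromosome 3. AC008040.4 was listed at 0 in each shCtrl library, and its shHOTAIR values were 0.0448, 0.00758 and 0.0944 FPKM. AC008040.1 stood at 0.0296 ± 0.0238 and 0.118 ± 0.0290 FPKM (SD, n = 3), both far under the level of FHL1. FHL2 shared 439 of its 6770 stretches (6.48%) with transcripts of 4953 other genes, and FHL3 shared none. The part of these shared stretches in the values of FHL2 was not tested.

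The start regions varied in base composition within each gene that has several. The RefSeq promoter table (GRCh38) held 12 start windows of FHL1, 4 of FHL2 and 1 of FHL3, and the 250 bases before each start were read. GC content ran from 37.2% to 82.0% over the windows of FHL1, with 1 to 37 CpG dinucleotides, and from 53.6% to 72.0% over those of FHL2, with 5 to 31, so the ranges of these genes overlap. The base sequences below are the parts of 1 window per gene that lie outside annotated exons, shown as the regions upstream of the genes measured here. That of FHL1 is at chrX:136147283-136147399 (plus strand), and its full window is the one with the highest GC content of the 12, at 82.0% with 37 CpG.
FHL1: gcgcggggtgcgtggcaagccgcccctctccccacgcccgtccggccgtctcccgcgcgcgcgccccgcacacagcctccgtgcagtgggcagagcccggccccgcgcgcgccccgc
The window of FHL3, part of which is at chr1:38005607-38005764 (minus strand), had 80.0% GC and 24 CpG.
FHL3: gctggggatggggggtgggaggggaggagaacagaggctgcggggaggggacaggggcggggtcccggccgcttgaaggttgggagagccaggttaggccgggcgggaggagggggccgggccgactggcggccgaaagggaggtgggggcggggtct
The window of FHL2 at chr2:105438530-105438779 (minus strand) is the one with the lowest GC content of the 4, at 53.6% with 5 CpG, and was chosen because it lies outside exons and holds a CArG box. Capitals mark that box, the element that serum response factor (SRF) binds.
FHL2: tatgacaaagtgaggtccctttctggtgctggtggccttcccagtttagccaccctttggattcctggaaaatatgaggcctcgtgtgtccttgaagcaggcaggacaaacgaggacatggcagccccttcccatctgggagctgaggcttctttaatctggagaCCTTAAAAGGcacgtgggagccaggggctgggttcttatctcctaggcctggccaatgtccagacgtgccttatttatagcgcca
FHL2 is a known target of SRF, and 3 searches were therefore made on both strands, chosen after the data were seen. These were the CArG box, the AP-1 element TGANTCA and the TEAD element GGAATG. The CArG box was found in 3 of the 4 windows of FHL2, at 2 distinct places, in 1 of 12 windows of FHL1 and in the window of FHL3 not at all. Of all 35116 promoter windows 1.16% held it. The other box of FHL2 lies within the stretch chr2:105399091-105399120 (minus strand) and that of FHL1 within chrX:136196911-136196940 (plus strand), both inside annotated exons. The stretches are shown with the boxes in capitals.
FHL2: gcgtgcatctCCTTATATGGtcaaatgaca
FHL1: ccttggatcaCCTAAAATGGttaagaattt
TGANTCA, found in 6.57% of all windows, was in 2 overlapping windows of FHL1 at the same site. GGAATG, found in 11.9% of all windows, was in 1 window each of FHL1 and FHL2. A match describes letters in a window and is not a measured binding site.

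FHL1 was the member with the large difference. Its level was 47.3, 49.8 and 48.9 FPKM in shCtrl 1, 2 and 3 and 218, 230 and 221 FPKM in shHOTAIR 1, 2 and 3. Each shHOTAIR library was well above each shCtrl library, and the groups did not overlap. The means were 48.7 ± 1.27 and 223 ± 6.18 FPKM (SD, n = 3), a 4.58-fold difference, or 2.17 on the log2(FPKM + 1) scale. In the shCtrl libraries FHL1 was above 72.5% to 73.9% of the tested protein-coding genes, and in the shHOTAIR libraries above 95% to 95.5%. By log2 difference it ranked 23 among 11587 tested protein-coding genes, and 5 among the 3021 whose mean was 50 FPKM or more. Among the 404 tested protein-coding genes of chromosome X it came after ARMCX2 (log2 difference 3.75) and IL13RA2 (3.44). These ranks describe the gene for which the family was picked.

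FHL2 moved the other way and by much less. Its level was 102, 107 and 107 FPKM in the shCtrl libraries and 87.9, 86.1 and 88.9 FPKM in the shHOTAIR libraries. All 3 shHOTAIR values lay under all 3 shCtrl values. FHL2 fell from 106 ± 2.97 to 87.6 ± 1.40 FPKM (SD, n = 3), a log2 change of -0.27 with a 95% confidence interval from -0.38 to -0.15 (limma, adjusted p = 0.0113). Its place among the tested protein-coding genes went from above 86.9% to 87.7% of them to above 84.8% to 85.4%. After centring each gene on its chromosomal neighbours the log2 change was -0.13 and did not pass (limma, adjusted p = 0.106). An antisense gene, AC108058.1, overlaps FHL2. It stood at 0.600 ± 0.125 and 0.425 ± 0.0714 FPKM (SD, n = 3), and no source used here states whether strand was used in counting.

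FHL3, the least abundant of the 3, was at 11.4, 10.6 and 11.3 FPKM in shCtrl 1, 2 and 3, and the corresponding shHOTAIR values were 13.9, 14.9 and 16.1 FPKM. The lowest shHOTAIR value was above the highest shCtrl value. FHL3 rose from 11.1 ± 0.433 to 15.0 ± 1.08 FPKM (SD, n = 3), a log2 change of 0.40 with a 95% confidence interval from 0.22 to 0.57 (limma, adjusted p = 0.0131). The call ended without shCtrl 2, shCtrl 3 or shHOTAIR 2 (limma, adjusted p = 0.0537, 0.0504 and 0.0552) and after centring on neighbours (log2 change 0.16, adjusted p = 0.180). FHL3 was above 33.4% to 34.6% of the tested protein-coding genes in shCtrl and above 40.7% to 43.9% in shHOTAIR. FHL5, the remaining relative with a row in GENCODE 29, was listed at 0 in all 6 libraries.

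**Figure D1:**
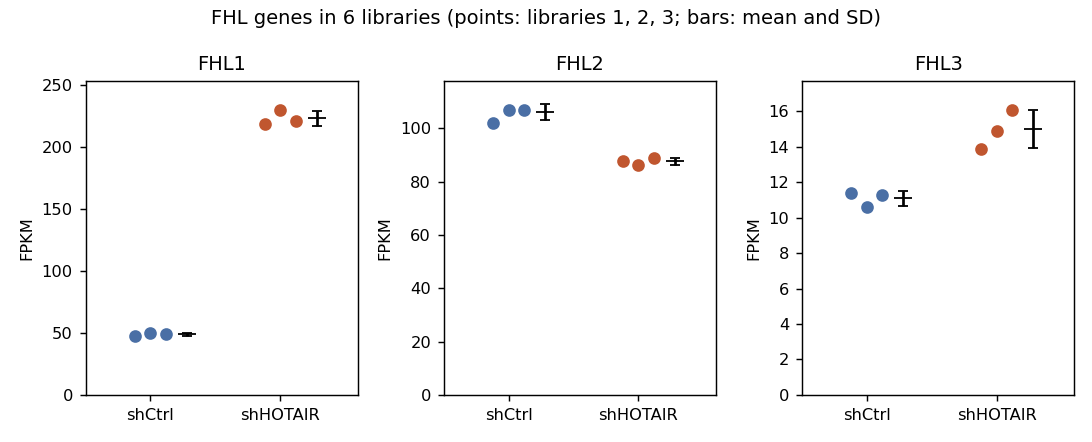
FPKM of FHL1, FHL2 and FHL3 in the 3 shCtrl (blue) and 3 shHOTAIR (orange) libraries, with separate vertical axes that start at 0; the bars beside the points are the mean and SD. FHL1 lies near 48.7 FPKM in shCtrl and near 223 FPKM in shHOTAIR, while FHL2 and FHL3 move by far smaller amounts, FHL2 downward and FHL3 upward, and in none of the 3 do the groups overlap.

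The calls of FHL2 and FHL3 have to be read against a table in which many genes moved. Of all 15934 genes tested, 23.8% passed in limma in either direction, with 1829 (11.5%) higher and 1968 (12.4%) lower in shHOTAIR, and in 43.0% the groups did not overlap (19.9% higher and 23.2% lower). Among the 7908 protein-coding genes whose mean was 10 FPKM or more, 31.0% passed and in 50.6% the groups did not overlap. The median log2 change of all tested genes was -0.03. The median absolute log2 change of the tested protein-coding genes was 0.21, beside -0.27 for FHL2, 0.40 for FHL3 and 2.17 for FHL1.

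With FHL1 higher and FHL2 lower, the order of the members was different in the 2 groups. In each shCtrl library the order from the top was FHL2, FHL1, FHL3, and in each shHOTAIR library it was FHL1, FHL2, FHL3. The ratio of FHL1 to FHL2 was 0.463, 0.464 and 0.456 in shCtrl 1, 2 and 3 and 2.48, 2.67 and 2.49 in shHOTAIR 1, 2 and 3. The gap between neighbours in each order was larger than the SD of either. The ratio of FHL2 to FHL3, which does not contain FHL1, was 8.95, 10.1 and 9.47 in shCtrl and 6.31, 5.78 and 5.52 in shHOTAIR. The sum of the 3 members was 165 ± 3.89 FPKM in shCtrl and 325 ± 5.70 FPKM in shHOTAIR (SD, n = 3), 1.97-fold higher. FHL1 made up 29.4% ± 0.251 of this sum in shCtrl and 68.5% ± 0.863 in shHOTAIR (SD, n = 3). FHL2 made up 63.8% ± 0.299 and 26.9% ± 0.781, and FHL3 6.73% ± 0.383 and 4.60% ± 0.297. The sums and shares contain FHL1 and are a description.

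**Figure D2:**
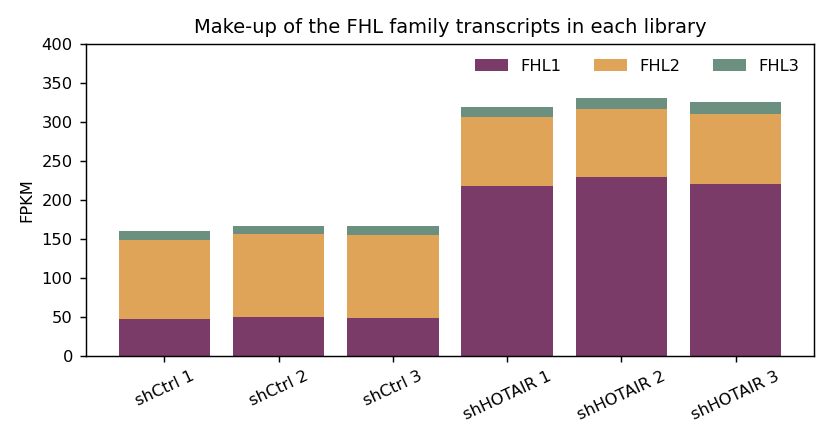
Stacked FPKM of FHL1, FHL2 and FHL3 in each of the 6 libraries; the height of a bar is the summed FPKM of the 3 genes. The sum is 161 to 168 FPKM in the shCtrl libraries, mostly FHL2, and 319 to 331 FPKM in the shHOTAIR libraries, mostly FHL1.

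The chromosomal surroundings of the members were compared because earlier results of these data had shown shifts that run along chromosomes, so they are not independent support for such shifts. Of the 404 tested protein-coding genes of chromosome X, 43.3% passed as higher and 4.95% as lower in limma, with a median log2 change of 0.28, against 13.8% and 14.9% over all tested protein-coding genes. Of the 20 tested protein-coding genes nearest to FHL1, 10 on each side over 8.84 Mb, 15 rose and 0 fell in limma, also 0 at an unadjusted p under 0.05, and the median log2 change of the 20 was 0.56. MAP7D3, a microtubule-associated protein gene, lies on the minus strand at chrX:136213220-136256482, just past the end of FHL1 at 136211359. It had 48.0, 40.0 and 39.6 FPKM in shCtrl and 81.4, 88.7 and 97.4 FPKM in shHOTAIR. HTATSF1, which encodes a cofactor of transcription and splicing, was at 42.5 ± 1.13 and 80.2 ± 1.84 FPKM (SD, n = 3). Both rose, by 1.05 and 0.90 on the log2 scale (limma, adjusted p = 0.00236 and 0.000483). MMGT1, a membrane magnesium transporter gene, lies on the other side and rose by 0.84 on the log2 scale (limma, adjusted p = 0.00299). The difference of FHL1 (2.17) was larger than that of each of its 20 neighbours, the highest of which was 1.05. When each gene was centred on 50 neighbours on its chromosome, which removes a shared shift by construction, the difference of FHL1 was 1.53. Of its 20 neighbours 1 then passed as higher, HTATSF1 (log2 change 0.26, adjusted p = 0.0361).

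The genes around FHL2 were mostly not called. Of 20 neighbours over 8.35 Mb of chromosome 2, 1 rose and 5 fell in limma, and the median log2 change was -0.15, against -0.03 for the 790 tested protein-coding genes of that chromosome, of which 105 rose and 112 fell. Without shCtrl 1, shCtrl 2 or shHOTAIR 3 the count that fell was 3. TGFBRAP1, which encodes a protein that binds TGF-beta receptors and takes part in vesicle tethering, had 17.6 ± 0.587 and 14.4 ± 0.593 FPKM (SD, n = 3) and a log2 change of -0.27, the same as FHL2 (limma, adjusted p = 0.0200). Its call ended without shCtrl 1, shCtrl 2, shHOTAIR 2 or shHOTAIR 3 (limma, adjusted p up to 0.0715) and after centring (adjusted p = 0.174). The closest gene, C2orf49, had a log2 difference of -0.08 (limma, adjusted p = 0.630). NCK2, an adaptor of receptor tyrosine kinases, and UXS1, which makes UDP-xylose, had log2 differences of 0.14 and 0.13 (limma, adjusted p = 0.142 and 0.343), and NCK2 passed after centring (0.29, adjusted p = 0.0265).

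Around FHL3, 4 of 20 neighbours over 2.35 Mb of chromosome 1 rose and 0 fell in limma, also 0 at an unadjusted p under 0.05, with a median log2 change of 0.24. Without shCtrl 3 the count that rose was 2. Chromosome 1 as a whole had a median log2 change of 0.16, with 279 of 1137 tested protein-coding genes higher and 79 lower. UTP11, a gene of ribosome assembly, lies on the plus strand at chr1:38009258-38024824, close to the start of FHL3 on the minus strand at 38005606. It had 56.1, 61.9 and 58.2 FPKM in shCtrl and 56.4, 78.8 and 79.2 FPKM in shHOTAIR. UTP11 did not pass (log2 difference 0.26, limma, adjusted p = 0.246). Without shHOTAIR 1, the lowest of its group, UTP11 passed (log2 change 0.42, adjusted p = 0.0147). The splicing factor gene SF3A3 (log2 difference 0.21), the phosphatase gene INPP5B (0.48) and RRAGC (0.00), a GTPase gene of amino acid sensing, did not pass either (limma, adjusted p = 0.162, 0.216 and 0.979). The log2 change of FHL3 (0.40) thus lay within the range of its neighbours, from -0.15 to 0.48, as that of FHL2 lay within -0.76 to 0.69 of its own.

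**Figure D3:**
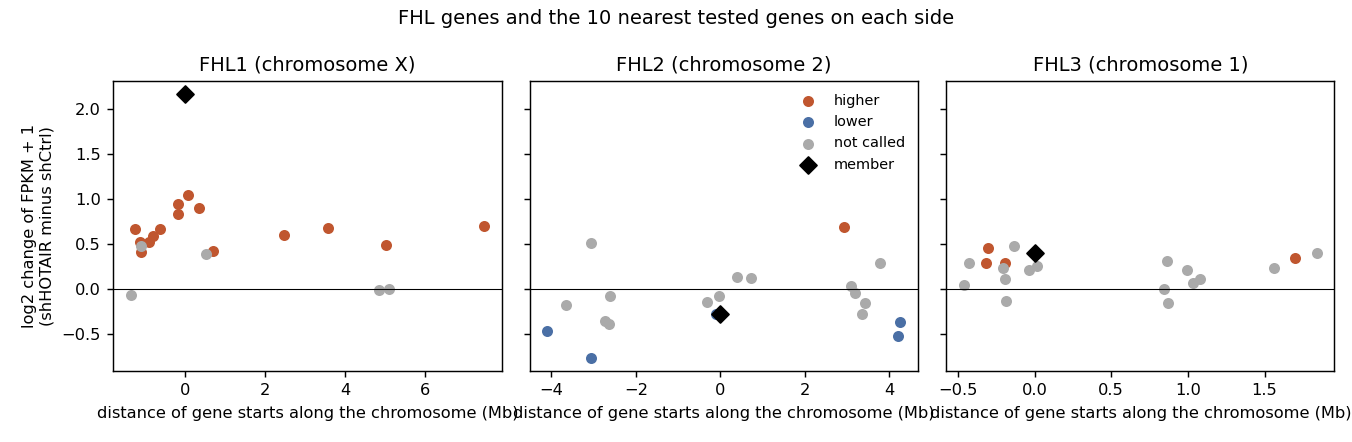
Log2 change of FPKM + 1 (shHOTAIR minus shCtrl) of each member (black diamond) and of the 10 nearest tested protein-coding genes on each side, against the distance of gene starts along the chromosome in Mb; orange genes passed as higher, blue as lower and grey did not pass in limma. FHL1, at 2.17, stands above neighbours that reach 1.05, while FHL2 and FHL3 lie among theirs. A gene start is here the lowest coordinate of the gene, whatever its strand.

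The genes whose pattern over the 6 libraries was most like that of each member were found by the root-mean-square distance of log2(FPKM + 1) profiles centred on their own means, among protein-coding genes. For FHL1 they were INHBB, which encodes an activin and inhibin subunit (distance 0.0548), LAMB4, a laminin chain (0.0940), TIE1, a receptor kinase of endothelium (0.125), NMU, a neuropeptide (0.127), and CDH11, a cadherin (0.129). All 5 were low in shCtrl, from 0.929 ± 0.0760 FPKM for INHBB to 3.38 ± 0.183 FPKM for CDH11 (SD, n = 3), where FHL1 was at 48.7 FPKM. INHBB reached the mean of 1 FPKM only through shHOTAIR. The fold difference of means was larger in all 5 than the 4.58 of FHL1, up to 8.19 for INHBB. With 0.1 added to FPKM in place of 1, their log2 differences ran from 2.28 (CDH11) to 2.91 (INHBB), against 2.19 for FHL1. The likeness to FHL1 thus depends on the value added before taking logs. In shHOTAIR INHBB was at 7.30, 7.78 and 7.72 FPKM and CDH11 at 16.3, 15.3 and 19.1 FPKM. For FHL2 the nearest were XPNPEP1 (0.0201), PWP1 (0.0239), TGFBR2 (0.0244), MRPL50 (0.0249) and LTV1 (0.0254). TGFBR2, a TGF-beta receptor, had 81.6, 84.2 and 81.9 FPKM in shCtrl and 68.3, 65.5 and 68.0 FPKM in shHOTAIR. For FHL3 they were BZW1 (0.0267), GGCX (0.0312), SCARB2 (0.0324), MAD1L1 (0.0350) and YARS (0.0355). GGCX, the vitamin K-dependent carboxylase, had 21.0, 20.2 and 20.5 FPKM in shCtrl and 24.7, 26.2 and 28.5 FPKM in shHOTAIR, so that like FHL3 it was highest in shHOTAIR 3. These genes were chosen for their likeness and have no test.

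Other genes with LIM domains moved in both directions. Of 49 such genes in 4 lists, 38 were expressed enough to be tested, and 10 rose and 9 fell in limma, 19 of 38 against 28.7% of all tested protein-coding genes. At a mean of 10 FPKM or more the share over all protein-coding genes was 31.0%. Their median log2 change was -0.02, against -0.03 over all genes, and in 24 of the 38 the groups did not overlap, against 49.7% of all tested protein-coding genes. The count that rose was 6 without shCtrl 2 or shHOTAIR 2. The count that fell was 4 without shCtrl 1 or shCtrl 3 and 5 without shHOTAIR 2.

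Among the LIM-only and cysteine-rich proteins, which are the closest in build to the FHL family, 6 of 13 were tested, 2 rose and 1 fell, with a median log2 change of 0.03. LMO2, a bridging protein of transcription complexes, had 5.23, 6.06 and 5.99 FPKM in shCtrl and 2.89, 3.39 and 3.43 FPKM in shHOTAIR. It fell by 0.67 on the log2 scale (limma, adjusted p = 0.00678). CSRP1, a cysteine-rich protein of actin filaments, and LMO4, a transcriptional adaptor of breast epithelium, rose by 0.46 and 0.25 (limma, adjusted p = 0.0136 and 0.0169). Both calls ended without shCtrl 1, shCtrl 2 or shHOTAIR 2 (limma, adjusted p up to 0.0549 for CSRP1 and 0.0533 for LMO4) and after centring on neighbours (0.0691 and 0.382). CSRP2, from the same subfamily as CSRP1, was at 51.6 ± 3.45 and 46.7 ± 9.40 FPKM (SD, n = 3) and did not pass (limma, adjusted p = 0.493). The muscle member CSRP3 was at 0.0290 ± 0.0308 and 0.00733 ± 0.0127 FPKM, and CRIP3, like FHL5, was listed at 0 in all 6 libraries.

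In the zyxin and paxillin families, adaptor proteins of focal adhesions and cell junctions, all 10 genes were tested, 3 rose and 3 fell, with a median log2 change of -0.14. FBLIM1, which encodes migfilin, a link between filamin and integrin adhesions, had 0.302, 0.328 and 0.725 FPKM in shCtrl and 6.80, 6.15 and 6 FPKM in shHOTAIR. Its log2 change of 2.34 (limma, adjusted p = 0.00083) was the only one in the 4 lists above that of FHL1, at a level far under that of FHL1. FBLIM1 reached the mean of 1 FPKM only through shHOTAIR, and with no filter on low values it passed as well (adjusted p = 0.00264). AJUBA, a junction protein that acts on the Hippo pathway, rose from 24.3 ± 1.15 to 41.1 ± 2.57 FPKM (SD, n = 3; limma, adjusted p = 0.00189). LPXN, the paxillin relative leupaxin, fell from 74.3 ± 3.60 to 50.2 ± 0.389 FPKM (SD, n = 3; limma, adjusted p = 0.00204). Paxillin itself, PXN, rose by 0.31 on the log2 scale (limma, adjusted p = 0.0119). The count that fell was 1 without shCtrl 1, shCtrl 3 or shHOTAIR 2.

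Of the PDZ-LIM proteins, adaptors of actin filaments, 7 of 8 were tested, 3 rose and 1 fell, with a median log2 change of 0.20. PDLIM7 had 38.0, 36.3 and 46.6 FPKM in shCtrl and 62.1, 67.0 and 61.5 FPKM in shHOTAIR, a rise of 0.65 on the log2 scale (limma, adjusted p = 0.00956). PDLIM2 rose by 0.54 (adjusted p = 0.0149), a call that ended without shCtrl 1 or shCtrl 2 (limma, adjusted p up to 0.0589). PDLIM4 fell by 0.62 (adjusted p = 0.0194), a call that ended without shCtrl 1, shCtrl 3 or shHOTAIR 2 (limma, adjusted p up to 0.0749). LMO7 rose by 0.28 (adjusted p = 0.0418). That call ended without any 1 of the libraries other than shCtrl 1 (limma, adjusted p up to 0.117), and after centring LMO7 had a log2 change of -0.35 (adjusted p = 0.0218). The count that rose was 1 without shCtrl 2.

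Of the actin-binding and other LIM proteins 15 of 18 were tested, 2 rose and 4 fell, with a median log2 change of 0.01. MICALL1, an adaptor of endosome recycling, fell from 35.4 ± 2.07 to 21.2 ± 1.79 FPKM (SD, n = 3; limma, adjusted p = 0.00324). LASP1, an actin-binding protein of cell edges, rose from 53.2 ± 2.10 to 79.9 ± 8.33 FPKM (SD, n = 3; limma, adjusted p = 0.00847). MICAL2, an oxidase of actin known to act on SRF cofactors, rose by 0.54 on the log2 scale (limma, adjusted p = 0.0144), a call that ended without shHOTAIR 2 or shHOTAIR 3 (adjusted p = 0.0574 and 0.0550). PRICKLE3, a planar polarity gene of chromosome X, fell by 0.36 on the log2 scale (limma, adjusted p = 0.0126), a call that ended with a minimum mean of 5 FPKM (0.0829) and after centring (0.0913). The count that rose was 1 without shHOTAIR 2 or shHOTAIR 3, and the count that fell was 2 without shCtrl 1, shCtrl 3 or shHOTAIR 3.

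**Figure D4:**
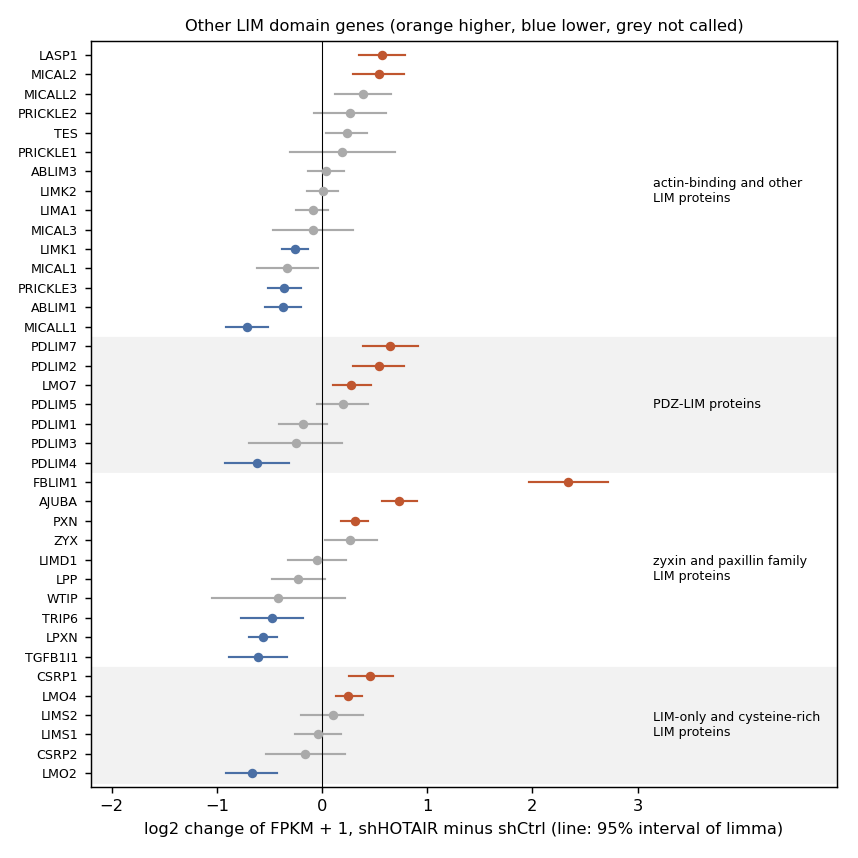
Log2 change of FPKM + 1 (shHOTAIR minus shCtrl) with the 95% confidence interval of limma for the 38 tested genes of 4 lists of LIM domain proteins, with FHL1, FHL2 and FHL3 left out; orange passed as higher, blue as lower and grey did not pass. FBLIM1, at 2.34, stands apart, and the rest lie between -0.71 and 0.73.

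Proteins that FHL1 is reported to bind act in TGF-beta, Notch and MAP kinase signalling. Of 10 such genes 9 were tested, 1 rose and 3 fell, 44.4% against 28.7% of all tested protein-coding genes, with a median log2 change of -0.18. SMAD3, a transcription factor of TGF-beta signalling, had 26.7, 29.6 and 27.3 FPKM in shCtrl and 43.8, 44.9 and 44.4 FPKM in shHOTAIR. It rose by 0.65 on the log2 scale (limma, adjusted p = 0.00155). SMAD2, its close relative, fell from 41.6 ± 2.97 to 30.1 ± 1.95 FPKM (SD, n = 3; limma, adjusted p = 0.0121), a call that ended without shCtrl 3 (0.0515) and after centring (0.949). SMAD4, the shared partner of both, had a log2 difference of -0.41 and did not pass (limma, adjusted p = 0.0688), but passed without shCtrl 1 (-0.52, adjusted p = 0.0474). RBPJ, the DNA-binding factor of the Notch pathway, fell by 0.42 on the log2 scale (limma, adjusted p = 0.0432), a call that ended without any 1 of the libraries other than shHOTAIR 1 (adjusted p up to 0.132), after either rescaling (0.0580 and 0.0613) and after centring (0.523). The count that fell was 1 without shCtrl 3 and 0 after centring (limma).

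Reported partners of FHL2 are transcription factors and adhesion proteins. Of 22 genes 19 were tested, 7 rose and 5 fell, 63.2% against the same 28.7%, with a median log2 change of -0.14. ITGA3, the integrin alpha 3 chain, had 197, 235 and 220 FPKM in shCtrl and 404, 514 and 501 FPKM in shHOTAIR, a rise of 1.11 on the log2 scale (limma, adjusted p = 0.00276). CREM, a factor that FHL proteins are known to activate, had 90.5, 95.9 and 96.1 FPKM in shCtrl and 57.0, 51.4 and 54.8 FPKM in shHOTAIR, a fall of 0.78 (limma, adjusted p = 0.00116). After centring on neighbours the log2 change of CREM was -0.26 (adjusted p = 0.0325). The level of FHL2 itself fell by 0.27 between these groups. JUN, an AP-1 subunit, rose from 48.8 ± 0.950 to 63.8 ± 2.32 FPKM (SD, n = 3; limma, adjusted p = 0.00497), with a log2 change of 0.38, or 0.23 after centring. SIRT1, a deacetylase that acts with FHL2 on FOXO1, fell from 34.1 ± 2.73 to 23.2 ± 0.183 FPKM (SD, n = 3; limma, adjusted p = 0.00492), and its log2 change after centring was -0.04 (adjusted p = 0.795). The count that rose was 4 without shHOTAIR 2 or shHOTAIR 3. The count that fell was 3 without any 1 of the libraries other than shHOTAIR 1, which left 4.

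Of 8 reported partners of FHL3, 7 were tested, and 1 rose and 1 fell, SMAD3 and SMAD2. This share of 28.6% is near the 28.7% of all tested protein-coding genes, and the median log2 change was -0.03. SMAD2 did not pass without shCtrl 3, and without shCtrl 1 the count that fell was 2. SP1, a general transcription factor, was at 16.9 ± 0.838 and 19.7 ± 0.986 FPKM (SD, n = 3) and did not pass (limma, adjusted p = 0.0676).

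SRF, which turns on genes of the actin cytoskeleton and whose activity FHL2 is known to restrain, had 13.2, 13.8 and 14.2 FPKM in shCtrl and 10.1, 10.6 and 9.79 FPKM in shHOTAIR. It fell by 0.40 on the log2 scale (limma, adjusted p = 0.00744), and after centring its log2 change was 0.08 (adjusted p = 0.445). Its cofactors ELK3, ELK4 and MRTFB had log2 differences of -0.17, -0.17 and 0.48 and did not pass (limma, adjusted p = 0.0837, 0.206 and 0.116), and MYOCD, the muscle cofactor, was listed at 0. Without shHOTAIR 1, MRTFB rose (0.68, adjusted p = 0.0192) and ELK3 fell (-0.22, adjusted p = 0.0382) in limma.

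Of 20 known target genes of SRF 18 were tested, 3 rose and 4 fell, 38.9% against 28.7% of all tested protein-coding genes, with a median log2 change of 0.09. Of those that fell, ACTA2 (2.11 and 0.815 FPKM in the means of shCtrl and shHOTAIR) reached the filter only through shCtrl. ANKRD1, a stretch-responsive ankyrin repeat gene, had 234, 213 and 211 FPKM in shCtrl and 93.9, 92.3 and 93.8 FPKM in shHOTAIR, a fall of 1.22 on the log2 scale (limma, adjusted p = 0.000406). EGR1, an immediate early gene, fell from 11.8 ± 0.482 to 3.75 ± 0.346 FPKM (SD, n = 3; limma, adjusted p = 0.000589). FLNA, the actin crosslinker filamin A and a gene of chromosome X like FHL1, rose from 242 ± 11.6 to 482 ± 27.7 FPKM (SD, n = 3; limma, adjusted p = 0.000924), and its log2 change was 0.99, or 0.40 after centring (adjusted p = 0.00838). TAGLN, the actin-binding protein transgelin, rose by 0.48 on the log2 scale (limma, adjusted p = 0.0023). The list thus held called genes in both directions, and the count that fell was 2 without shCtrl 1 or shHOTAIR 2.

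**Figure D5:**
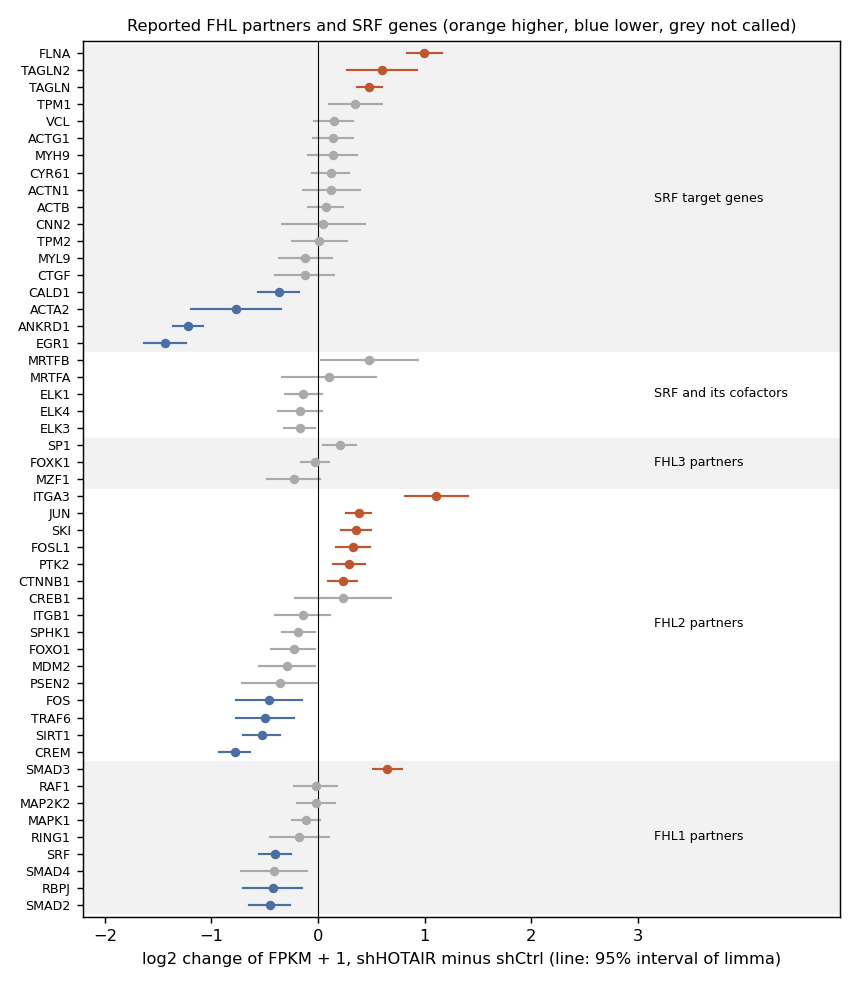
Log2 change of FPKM + 1 (shHOTAIR minus shCtrl) with the 95% confidence interval of limma for tested genes among reported partners of FHL1, FHL2 and FHL3, SRF with its cofactors and SRF target genes; a gene on several lists is drawn once, in the first of them from the bottom. Orange passed as higher, blue as lower and grey did not pass, and each of the 5 lists holds values on both sides of 0, from -1.44 (EGR1) to 1.11 (ITGA3).

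FHL1 is abundant in muscle, and markers of other cell types were read beside it. Of 14 skeletal and cardiac muscle markers 13 were under a mean of 1 FPKM and 4 were listed at 0 in all 6 libraries, among them MYOD1 and MYOG, the regulators of muscle fate. Their summed level was 23.0 to 34.1 FPKM in shCtrl and 20.5 to 27.2 FPKM in shHOTAIR. The tested 1 was TNNT1, a slow troponin, at 27.8 ± 5.54 and 23.1 ± 3.28 FPKM (SD, n = 3; limma, adjusted p = 0.357). Of 8 fibroblast markers 2 were tested, with a summed level of 2.63 to 3.45 FPKM in shCtrl and 4.51 to 5.74 FPKM in shHOTAIR. COL1A1 rose from 1.33 ± 0.251 to 3.51 ± 0.282 FPKM (SD, n = 3; limma, adjusted p = 0.00572), and PDGFRB did not pass (adjusted p = 0.840). The other 6 were under a mean of 1 FPKM, with COL1A2 at 0.0145 and 0.00897 FPKM in the means of shCtrl and shHOTAIR and THY1 at 0.00921 and 0.0214 FPKM. Of the fibroblast list only COL1A1 thus passed, and its part in the difference of FHL1 was not tested. The summed level of 6 endothelial markers was 1.64 to 2.01 FPKM in shCtrl and 2.23 to 3.00 FPKM in shHOTAIR, so the sums did not overlap. KDR, the tested 1, had 1.44, 1.54 and 1.34 FPKM in shCtrl and 2.77, 2.02 and 2.07 FPKM in shHOTAIR and did not pass (limma, adjusted p = 0.0842), but it passed in limma without an intensity trend (0.0422) and after centring (0.0473). The mean of VWF was 0.00992 and 0.0603 FPKM and that of CDH5 0.0260 and 0.0129 FPKM in shCtrl and shHOTAIR. TIE1, an endothelial gene that is not on the list, had 1.43 ± 0.204 and 10.8 ± 1.44 FPKM (SD, n = 3). The part of these genes' cell type in the difference of FHL1 was not tested. The 6 leukocyte markers summed to 0.442 to 0.835 FPKM and 0.140 to 0.593 FPKM. In bulk RNA a change in the share of cells that express a gene and a change in its RNA per cell cannot be told apart, and this holds for FHL1, FHL2 and FHL3 alike.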

How the data were processed

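Poly(A) RNA of 6 MDA-MB-231 libraries, 3 shCtrl and 3 shHOTAIR, was grouped by the hairpin in the labels. The authors deposited FPKM values, and which program and annotation produced them is not stated in the sources used here. TopHat2 2.0.13, DESeq and the build GRCh38 are listed, without roles, per the submitters' processing notes. Of 65198 rows, 56807 matched GENCODE 29 by identifier. Values were analysed as log2(FPKM + 1). The 15934 genes whose mean reached 1 FPKM were fitted with limma 3.58.1 in R 4.3.3 (intensity trend, no replicate block), adjusted over all of them by the Benjamini-Hochberg method with a threshold of 0.05. Whole-table fits were tested on simulated data. Python 3.11.15, pandas 2.3.3 and matplotlib 3.10.9 were used for tables and figures.

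The members, lists, tests and alternatives were chosen with earlier results of these data known, and lists came from general knowledge. The rule for naming genes took the members, FHL5, HOTAIR, up to 4 tested genes of each list with the smallest p, 2 neighbours on each side and 5 genes of nearest pattern per member. CD44, KRT8, KRT19, ACTA2, ARMCX2, IL13RA2 and the untested markers named were added after their values were seen. Some genes of the lists and neighbourhoods are counted but not reported here by name. Motifs were chosen in the same way. Alternatives were other pseudocounts, filters, rescaling, variance settings, a replicate block, centring on 50 chromosomal neighbours, and each library left out.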

Additional observations from a re-analysis of the deposited data

How the results depend on the processing

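The sign of FHL1, FHL2 and FHL3 was kept under all 16 alternatives. With 1 library left out the log2 change was 2.15 to 2.19 for FHL1, -0.29 to -0.25 for FHL2 and 0.35 to 0.44 for FHL3, with adjusted p from 0.0208 to 0.0356 for FHL2 and from 0.0199 to 0.0552 for FHL3 (limma). Counts without 1 library were 1243 to 1554 genes higher and 1224 to 1605 lower, 18 to 25 list members higher and 11 to 20 lower, and 16 to 21 neighbours higher and 3 to 5 lower. Genes lower numbered 1265, 1224 and 1266 without shCtrl 1, shCtrl 3 or shHOTAIR 2, and list members lower 12, 11 and 12. Same-numbered libraries did not deviate together (correlations -0.02, 0.01 and -0.03). This cannot show whether they were prepared as pairs, and the labels do not state it. A replicate block gave 825 genes higher and 915 lower, 13 and 9 list members, 12 and 2 neighbours, and log2 changes of -0.27 for FHL2 (adjusted p = 0.0745) and 0.40 for FHL3 (adjusted p = 0.0601). Among the other calls that ended under the block were PXN, LASP1, PDLIM7 and SRF (limma, adjusted p = 0.0664, 0.0523, 0.0531 and 0.0523). Centring on neighbours, which removes shared shifts by construction, gave 1267 genes higher and 1123 lower of 15359, 4 neighbours higher and 3 lower, and log2 changes of 1.53 for FHL1, -0.13 for FHL2 (adjusted p = 0.106) and 0.16 for FHL3 (0.180). It reversed C2orf49 (0.07), LMO7 (-0.35), RRAGC (-0.26), SF3A3 (-0.03), SMAD4 (0.06), SRF (0.08) and XPNPEP1 (0.21). Without 1 library, small differences changed sign in ERBB2 (-0.23 to 0.01), PDGFRB (-0.29 to 0.09) and RRAGC (-0.06 to 0.07). For the other changed values the cause was not tested. The absolute depth is unknown, which leaves low genes such as HOTAIR without a counting interval.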

Other observations

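Further reported partners of FHL2, chosen after their values were seen, included SKI, a repressor of TGF-beta signalling, which rose from 13.2 ± 0.441 to 17.2 ± 0.736 FPKM (SD, n = 3; limma, adjusted p = 0.00904), and after centring on neighbours its log2 change was 0.09 (adjusted p = 0.455). CTNNB1, the gene of beta-catenin, rose by 0.23 on the log2 scale (limma, adjusted p = 0.0344), a call that ended without any 1 of the libraries other than shCtrl 3 (adjusted p up to 0.0852). Among AP-1 genes FOSL1 rose by 0.33 (limma, adjusted p = 0.0174), a call that ended without shCtrl 1, shCtrl 2, shHOTAIR 2 or shHOTAIR 3 (up to 0.0580). FOS, another AP-1 gene, fell by 0.46 on the log2 scale (limma, adjusted p = 0.0490), a call that ended whichever library was left out (up to 0.132). TGFB1I1, the paxillin relative Hic-5, fell from 15.3 ± 0.942 to 9.79 ± 1.37 FPKM (SD, n = 3; limma, adjusted p = 0.0141), a call that ended without shCtrl 1, shCtrl 3 or shHOTAIR 2 (up to 0.0625).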
